A study of Homo sapiens with 4 samples.

Results

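The 32 genes described here make cholesterol and fatty acids or control their synthesis, and they were compared between *SOX2* knockdown and mock knockdown in LN229 cells, a glioblastoma cell line of human origin. They are the enzymes from acetoacetyl-CoA to cholesterol, the SREBP transcription factors with the proteins that hold or escort them, the enzymes that make and desaturate long-chain fatty acids, and the liver X receptors (LXR) with a target. Members were found by gene symbol on the arrays, where *SC4MOL* is the older name of *MSMO1* and *SC5DL* that of *SC5D*. The rule that finds them uses no measured value, but the list was drawn up with earlier results of these data known. All 32 were on the arrays, among 27739 features that each stand for 1 gene identifier. All 32 were also among the 18378 features kept, which had a signal-to-noise ratio (S/N, the signal over its error) over 3 on the 2 arrays of the knockdown group, of the mock group or of both.

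One group was LN229 cells transfected with siRNA against *SOX2*, the gene of an HMG-box transcription factor of stem cells, and the other was LN229 cells given a siRNA without a target, called mock. Cells of both groups grew in DMEM, and the study's methods give a transient transfection with harvest at 72 hours. Each group has 2 arrays, which the methods call biological replicates with their own transfections. Which of the study's siRNAs against *SOX2* each array received is not given in the sources used here. A signal is an average over a culture, so fewer cells that express a gene and less RNA per cell cannot be told apart.

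Cholesterol is built from acetyl-CoA by way of mevalonate, farnesyl diphosphate, squalene and lanosterol. When sterols in the endoplasmic reticulum are low, SCAP carries the SREBP precursors to the Golgi, where they are cut, and the freed part enters the nucleus and turns on the genes of this pathway. When sterols are high, INSIG proteins hold SCAP back. SREBP1, from *SREBF1*, acts mainly on fatty acid genes and SREBP2, from *SREBF2*, mainly on cholesterol genes. The LXR receptors bind oxysterols and act in the other sense, turning on sterol export and also *SREBF1*. In glioblastoma, fatty acid and cholesterol supply through SREBP has been studied as a need of the tumour cells.

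SREBP proteins bind sterol regulatory elements, short DNA motifs near the start of their target genes, often beside a CCAAT box that the factor NF-Y binds. The bases before the start of 5 members are printed because these had the lower signal with an unadjusted p under 0.05 described further on, and because they show how differently such motifs are spread among them. Each run is the 250 bases before the start, 5′ to 3′ on the gene's strand, from RefSeq (GRCh38.p14), and capitals mark TCACNCCA, a core of the sterol regulatory element, and CCAAT, each on either strand. *SCD* lies at chr10:100346983-100347232 on the plus strand, *SC4MOL* at chr4:165327419-165327668 on the plus strand, *SREBF2* at chr22:41832855-41833104 on the plus strand, *TM7SF2* at chr11:65111622-65111871 on the plus strand and *SREBF1* at chr17:17836987-17837236 on the minus strand.
SCD: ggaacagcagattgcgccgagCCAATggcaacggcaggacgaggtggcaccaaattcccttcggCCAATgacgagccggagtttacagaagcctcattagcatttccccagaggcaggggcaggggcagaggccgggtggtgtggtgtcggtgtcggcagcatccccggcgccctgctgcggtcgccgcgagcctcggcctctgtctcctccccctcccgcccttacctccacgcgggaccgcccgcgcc
SC4MOL: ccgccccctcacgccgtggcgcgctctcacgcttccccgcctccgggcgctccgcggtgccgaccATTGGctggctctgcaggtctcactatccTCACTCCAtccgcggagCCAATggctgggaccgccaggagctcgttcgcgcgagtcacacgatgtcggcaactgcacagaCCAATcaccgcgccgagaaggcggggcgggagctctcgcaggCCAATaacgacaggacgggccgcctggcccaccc
SREBF2: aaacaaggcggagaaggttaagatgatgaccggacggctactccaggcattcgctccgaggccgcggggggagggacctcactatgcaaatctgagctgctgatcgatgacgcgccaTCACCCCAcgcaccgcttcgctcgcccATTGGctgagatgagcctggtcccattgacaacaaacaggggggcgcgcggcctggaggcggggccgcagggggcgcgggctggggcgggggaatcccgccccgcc
TM7SF2: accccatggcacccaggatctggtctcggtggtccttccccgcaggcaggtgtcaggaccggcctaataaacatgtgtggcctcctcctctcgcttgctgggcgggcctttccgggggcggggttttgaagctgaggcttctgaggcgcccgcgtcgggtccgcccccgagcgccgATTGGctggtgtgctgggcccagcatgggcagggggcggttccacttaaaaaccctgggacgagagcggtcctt
SREBF1: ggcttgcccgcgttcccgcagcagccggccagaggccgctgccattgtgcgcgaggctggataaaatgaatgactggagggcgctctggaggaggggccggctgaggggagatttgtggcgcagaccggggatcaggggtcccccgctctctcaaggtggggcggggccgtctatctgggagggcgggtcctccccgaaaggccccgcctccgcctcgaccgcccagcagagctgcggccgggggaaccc

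In these windows TCACNCCA began 156 bases before the start of *SC4MOL* and 133 bases before that of *SREBF2*, and the letters did not occur in the windows of *SCD*, *TM7SF2* and *SREBF1*. CCAAT occurred 4 times at *SC4MOL*, 2 times at *SCD* and 1 time each at *SREBF2* and *TM7SF2*, and 0 times in the window of *SREBF1*. No match of one motif overlapped a match of the other in the 5 windows. RefSeq's table held 40 such windows for 28 of the members, some with several starts, and *FDFT1*, *ACAT2*, *SQLE* and *FASN* were not among them. TCACNCCA was in 7.5% of the member windows and in 3.2% of all 35116 windows of that length, and CCAAT was in 62.5% and 32%. The members with TCACNCCA were *MVK*, *SC4MOL* and *SREBF2*, of which *MVK* had a higher signal after knockdown and the others a lower signal. A match of letters is a description of the sequence and not a bound site.

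Signals are given as a multiple of the 75th percentile of the array's features, a unit called scaled signal here. The share of probes with S/N over 3 was between 63.5% and 68.9% on the 4 arrays. Over the features, Pearson's r was 0.991 between the knockdown arrays, 0.986 between the mock arrays and between 0.978 and 0.985 across the groups. SW620, a line from colon cancer, appears in the treatment text of the labels, and LN229 in the other fields. Of 9 glioma and mesenchymal markers 7 were over S/N 3 on each array, with *VIM* between 49.8 and 58.1, whereas *CHI3L1* was below that on each array. Of 9 colon epithelial markers 1 was over S/N 3 on each array, the highest value was 0.118, and *CDH1*, *KRT20* and *CDH17* were at background throughout.

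The knocked-down gene itself was lower. *SOX2* had a scaled signal of 0.454 and 0.682 in mock and 0.204 and 0.145 after knockdown. Each knockdown array was below each mock array, and the knockdown mean was 0.31 of the mock mean. The log2 change was −1.69 (SE 0.28), with an adjusted p of 0.114 by limma, adjusted after Benjamini and Hochberg over every feature kept. The knockdown arrays were at S/N 3.17 and 3.06, close to the limit of 3. Under a background correction of the raw reading (normexp) the log2 change of *SOX2* was −1.17, so its size is uncertain.

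Of the 32 genes, 26 had a lower mean log2 signal after *SOX2* knockdown and 6 a higher one, and the changes were small. The median log2 change of the members was −0.19, beside 0.00 over all features kept, of which 49.7% were lower. None of the members passed an adjusted p of 0.05, the smallest being 0.121 for *SCD*, and over all features the share that passed was 0%. At an unadjusted p under 0.05, 6 members were lower, or 18.8%, where the background share was 9.07%, and 0 were higher, where the background share was 8.12%. These 6 were *SCD*, *FDFT1*, *TM7SF2*, *SC4MOL*, *SREBF1* and *SREBF2*. Without mock replicate 2 the lower members at that p were *FDFT1* and *SCD* (6% of all features were lower at it), without knockdown replicate 1 *HMGCS1*, *FDFT1* and *SCD* (4.31%), and without knockdown replicate 2 *MVD* and *SCD* (3.96%). None differed over 2-fold in the replicate means, the cutoff in the study's methods, which 2.38% of all features passed.

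Each knockdown array was below each mock array for 17 members, or 53.1%, beside 25.7% of all features. Each was above for 4 members, *MVK*, *INSIG2*, *ACACA* and *NR1H3*, beside 21.6% of all features, and the groups overlapped for the other 11. In each of the 4 ways to set 1 knockdown array against 1 mock array the median member was lower, by log2 values of −0.15, −0.17, −0.23 and −0.28, and between 20 and 26 members were lower. These pairs share arrays, so they are not independent of each other. The 26 were also lower under each of 6 other scalings of the arrays, where between 47.7% and 54.9% of all features were lower. Under the normexp background correction of the raw reading 24 members were lower, beside 56.4% of all features. There *ACAT2*, *LSS* and *ACLY* turned to higher and *MVK* turned to lower.

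**Figure D1:**
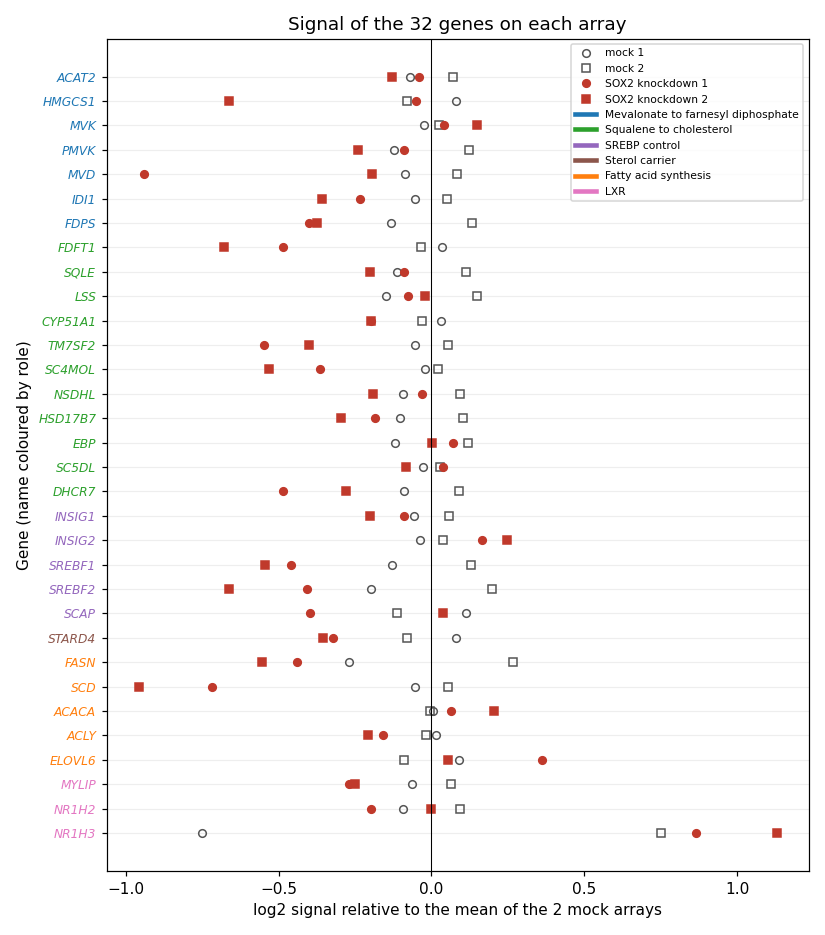
Log2 signal of each of the 32 genes on each array, relative to the mean of the 2 mock arrays (x axis), with genes in rows coloured by role. Open grey symbols are the mock arrays and filled red symbols the *SOX2* knockdown arrays; for 17 genes both red symbols lie left of both grey ones.

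The early steps lead from acetyl-CoA units to farnesyl diphosphate, the branch point to sterols, dolichol and prenylated proteins. Of the 7 members on this stretch 6 had a lower mean, beside 49.7% of all features. None reached an unadjusted p of 0.05, where 9.07% of all features were lower at it and 8.12% higher. *FDPS*, farnesyl diphosphate synthase, had 4.46 and 5.36 in mock and 3.70 and 3.77 after knockdown, a log2 change of −0.39 (SE 0.15, unadjusted p 0.054, adjusted p 0.301). Its groups did not overlap. Its 2 probes differed, the brighter going from 6.69 and 8.72 to 5.67 and 5.48 and the dimmer from 2.23 and 1.99 to 1.73 and 2.06, which overlap. *IDI1*, which interconverts the isoprene units, had 2.83 and 3.05 in mock and 2.497 and 2.29 after knockdown (log2 change −0.30). Its groups were apart when its 2 probes were averaged, and the dimmer probe was apart on its own (2.34 and 1.97 against 1.59 and 1.70) while the brighter overlapped (3.33 and 4.12 against 3.41 and 2.89).

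*MVD*, which decarboxylates mevalonate diphosphate, had 0.162 and 0.182 in mock and 0.0897 and 0.150 after knockdown. Its log2 change of −0.57 (SE 0.28, adjusted p 0.417) rested mostly on the first knockdown array, with −0.19 when that array was left out. *HMGCS1*, the synthase that forms HMG-CoA, had 0.949 and 0.850 against 0.867 and 0.567, so that the low second knockdown array carried its change of −0.36 and the groups overlapped. The log2 change was −0.05 without that array. The thiolase *ACAT2* (−0.08) and the kinase *PMVK* (−0.16) overlapped between the groups. Mevalonate kinase, *MVK*, was the member of this stretch on the other side, with 0.371 and 0.383 in mock and 0.388 and 0.418 after knockdown, a log2 change of 0.10 (SE 0.13).

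From squalene to cholesterol 10 of 11 members had a lower mean, beside 49.7% of all features. Of the 11, 3 were lower at an unadjusted p under 0.05, or 27.3%, beside 9.07% of all features. *FDFT1*, squalene synthase, joins 2 farnesyl groups in the step that commits carbon to sterols. Its scaled signal was 5.26 and 5.01 in mock and 3.66 and 3.21 after knockdown, so the knockdown mean was 0.67 of the mock mean and the groups were well apart. The log2 change was −0.58 (SE 0.14, adjusted p 0.164). These values average a bright probe, at 10.5 and 9.997 in mock and 7.30 and 6.41 after knockdown, with a second, dim probe that was over S/N 3 on 1 of the 4 arrays, so the ratio was that of the bright probe.

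*SC4MOL*, the methyl oxidase that starts the removal of the methyl groups at carbon 4, had 3.64 and 3.75 in mock and 2.87 and 2.56 after knockdown. Its knockdown mean was 0.73 of the mock mean, with a log2 change of −0.45 (SE 0.13, adjusted p 0.218). The mock arrays lay close together, and the knockdown arrays were apart from them by more than their own spread. *TM7SF2*, a sterol reductase of the double bond at carbon 14, had 0.443 and 0.477 in mock and 0.314 and 0.348 after knockdown. Its log2 change was −0.48 (SE 0.13, adjusted p 0.205), and the spread within each group was small beside the gap.

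*DHCR7*, the last reductase of the route through 7-dehydrocholesterol, had 0.979 and 1.11 in mock and 0.744 and 0.858 after knockdown, a log2 change of −0.38 (SE 0.15, unadjusted p 0.057). *CYP51A1*, the lanosterol demethylase, had 3.68 and 3.52 against 3.14 and 3.14, a change of −0.20. *HSD17B7*, a ketoreductase of the same complex as *SC4MOL* and *NSDHL*, had 0.378 and 0.436 against 0.357 and 0.331, a change of −0.24 with both of its probes lower on each knockdown array than on each mock array. For these 3 the groups did not overlap and the unadjusted p stayed above 0.05. The other 5 members overlapped between the groups. They were squalene epoxidase, *SQLE* (−0.15), lanosterol synthase, *LSS* (−0.05), the dehydrogenase *NSDHL* (−0.11), the isomerase *EBP* (0.04) and the desaturase *SC5DL* (−0.02). Of the 2 probes of *SC5DL* 1 was at background on each array.

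Along the route, members with the largest log2 changes stood next to members with changes near 0, such as *FDFT1* (−0.58) before *SQLE* (−0.15) and *LSS* (−0.05), or *SC4MOL* (−0.45) before *NSDHL* (−0.11). The 95% interval of the log2 change was −0.95 to −0.21 for *FDFT1* and −0.54 to 0.25 for *SQLE*, which overlap, and differences between genes were not tested.

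The genes of the SREBP system itself were measured as well. *SREBF1* had a scaled signal of 0.684 and 0.819 in mock and 0.544 and 0.513 after knockdown. Its knockdown mean was 0.70 of the mock mean, with a log2 change of −0.50 (SE 0.15, adjusted p 0.220). *SREBF2* had 0.323 and 0.424 in mock and 0.279 and 0.234 after knockdown, a ratio of 0.69 and a log2 change of −0.53 (SE 0.20, unadjusted p 0.049, adjusted p 0.289). Both SREBP transcripts were thus lower on each knockdown array than on each mock array. With the mock array of replicate 1 left out the log2 changes were −0.63 for *SREBF1* and −0.73 for *SREBF2*, and with that of replicate 2 left out they were −0.37 and −0.34. Under normexp they were −0.26 and −0.31. Neither gene kept an unadjusted p under 0.05 when the mock array of replicate 2 or either knockdown array was left out.

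*SCAP*, the escort of the SREBP precursors, had 1.99 and 1.71 in mock and 1.40 and 1.89 after knockdown. The groups overlapped, and its log2 change of −0.18 (SE 0.20) turned to 0.038 when the first knockdown array was left out. The 2 retention factors lay on different sides. *INSIG1*, itself an SREBP target, had 2.04 and 2.204 in mock and 1.99 and 1.84 after knockdown, a log2 change of −0.15. Its identifier also holds a dim probe without a gene name, beside the *INSIG1* probe at 3.96 and 4.33 against 3.93 and 3.62. *INSIG2* had 0.848 and 0.894 in mock and 0.977 and 1.03 after knockdown, a log2 change of 0.21 (SE 0.12, adjusted p 0.497). Its groups did not overlap, and its log2 change was between 0.17 and 0.25 in the 18 alternatives tried. The other floor, the other S/N filters, the variance trend and the blocks left that change as it was in the main run. *STARD4*, a carrier of sterols through the cytosol that SREBP2 turns on, had 2.34 and 2.09 in mock and 1.77 and 1.73 after knockdown, with a log2 change of −0.34 (SE 0.13, unadjusted p 0.056).

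**Figure D2:**
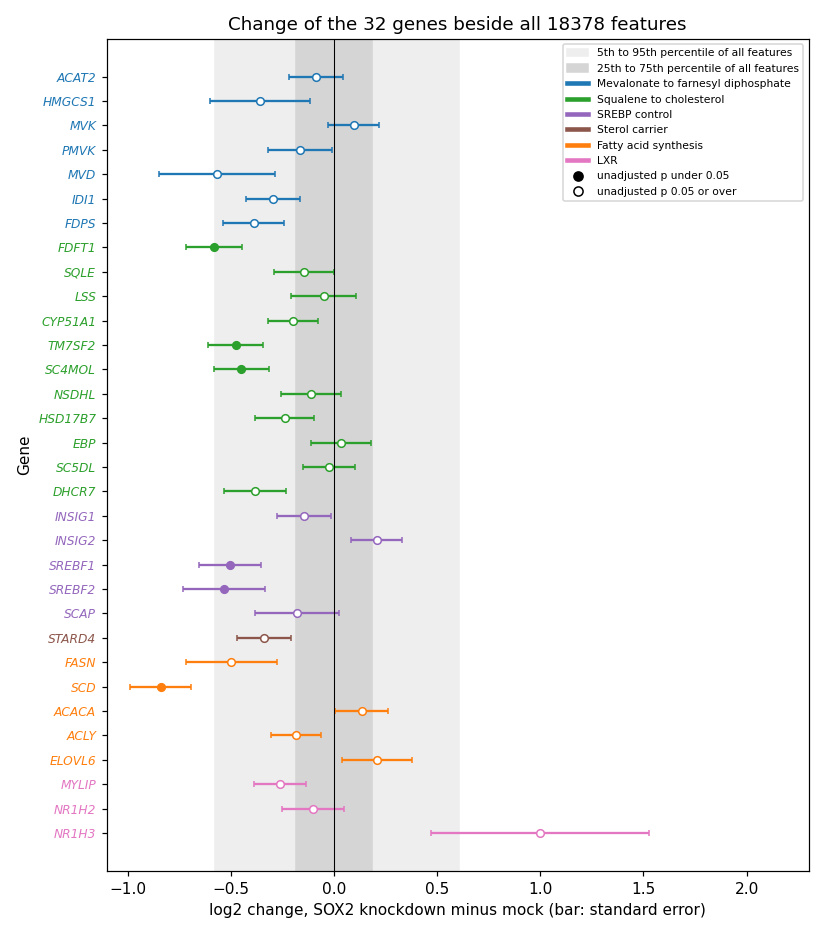
Log2 change of each of the 32 genes, *SOX2* knockdown minus mock, with its standard error by limma (x axis) and genes in rows coloured by role. Grey bands hold the middle 50% and 90% of all 18378 features, filled points have an unadjusted p under 0.05, and 16 members lie below the 25th percentile of all features at −0.19.

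In fatty acid synthesis the largest change of all lower members was that of *SCD*, stearoyl-CoA desaturase, which puts the first double bond into palmitate and stearate. Its scaled signal was 4.46 and 4.80 in mock and 2.81 and 2.38 after knockdown. The knockdown mean was 0.56 of the mock mean and the log2 change −0.84 (SE 0.15, unadjusted p 0.0035, adjusted p 0.121). Its 2 probes moved alike, from 4.55 and 4.90 to 2.85 and 2.43 and from 4.36 and 4.71 to 2.77 and 2.33. The log2 change of *SCD* was between −0.96 and −0.61 in the 18 alternatives. The other floor, the other S/N filters, the variance trend and the blocks left it as it was. Its unadjusted p by limma was under 0.05 in each alternative that used all 4 arrays.

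*FASN*, fatty acid synthase, had 1.06 and 1.53 in mock and 0.938 and 0.866 after knockdown, a log2 change of −0.50 (SE 0.22, adjusted p 0.361). Its groups did not overlap, though the mock arrays lay far apart from each other, and its log2 change was −0.77 without mock replicate 1 and −0.23 without mock replicate 2. Its identifier also holds a probe for other genes that was at background. *ACLY*, the lyase that supplies cytosolic acetyl-CoA, had 10.2 and 9.95 against 9.02 and 8.71, a change of −0.18. *ACACA*, acetyl-CoA carboxylase, had a dim signal of 0.0562 and 0.0559 in mock and 0.0586 and 0.0645 after knockdown (log2 change 0.13). That feature averages an *ACACA* probe with an *ACACB* probe below S/N 3 on each array, and the *ACACA* probe alone had 0.0738 and 0.0934 against 0.0839 and 0.0931, which overlap. The elongase *ELOVL6* had 0.371 and 0.327 against 0.447 and 0.361, with overlapping groups and a log2 change of 0.21 (SE 0.17).

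Of the LXR genes, *NR1H2*, the gene of LXRβ, had 1.07 and 1.22 in mock and 0.999 and 1.14 after knockdown, with overlapping groups and a log2 change of −0.10. *NR1H3*, the gene of LXRα, had the largest log2 change of the 32 genes and the least certain on these arrays. The study lists *NR1H3* among the genes whose rise after the knockdown it also checked by RT-PCR, a separate measure of RNA. Its scaled signal was 0.0835 and 0.236 in mock and 0.256 and 0.307 after knockdown. The first mock array was at S/N 2.36, under the limit of 3, and the mock arrays differed from each other by more than the second mock array did from either knockdown array. The log2 change was 0.998 (SE 0.53, 95% interval −0.41 to 2.41, adjusted p 0.440). It was 0.25 without the first mock array and 1.75 without the second, in which case the gene passed 2-fold. *MYLIP*, an LXR target whose product marks the LDL receptor for degradation, had 2.72 and 2.98 in mock and 2.36 and 2.39 after knockdown, a log2 change of −0.26 (SE 0.13, adjusted p 0.406). A second identifier of *MYLIP* had 1.21 and 1.28 against 1.05 and 0.985, also with groups apart.

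Other scalings changed how these genes stood in the tests. When the arrays were scaled to their median, 4 members were lower at an unadjusted p under 0.05 (*MVD*, *FDFT1*, *SREBF2* and *SCD*) and 1 was higher (*NR1H3*), where 6.25% and 5.38% of all features were, and the same members were called without further scaling and in the deposited ratio table. In these 3 settings *NR1H3* was the member that passed an adjusted p of 0.05, as did between 639 and 669 of all features, where 0 did under the main scaling. There the adjusted p of the members stood in the order of the size of the log2 change. The spread of a gene's own replicates did not alter its place. *NR1H3* had passed the S/N filter through the knockdown arrays alone, where it is higher. It was not kept when S/N over 3 was asked of all 4 arrays, so these calls are no support for a difference.

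**Figure D3:**
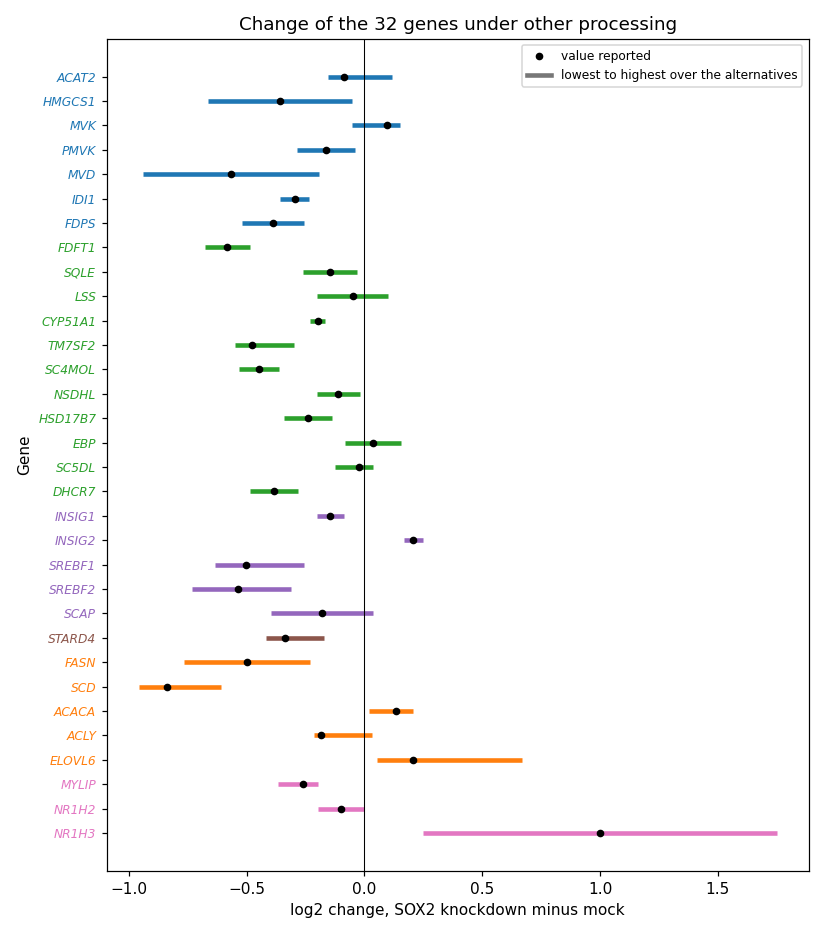
Log2 change of each of the 32 genes, *SOX2* knockdown minus mock (x axis), as reported (black point) and from the lowest to the highest value over the alternatives tried (coloured line), with genes in rows coloured by role. The line of *SCD* runs from −0.96 to −0.61 and that of *NR1H3* from 0.25 to 1.75, and the lines that cross 0 are those of *ACAT2*, *MVK*, *LSS*, *EBP*, *SC5DL*, *SCAP* and *ACLY*.

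Further genes of the same pathways were read from a list of 49, of which 48 were kept. Their mean was lower for 34 and higher for 14, with a median log2 change of −0.11. At an unadjusted p under 0.05, 6 were lower, or 12.5%, and 3 higher, or 6.25%, near the 9.07% and 8.12% of all features, and 0 passed an adjusted p of 0.05. The 3 higher genes include *CH25H*, which passed the S/N filter through the knockdown arrays alone, where it is high. Its call is therefore no test. The feature of *ACACB* in this list is that of *ACACA* above. In sterol synthesis, uptake and processing 14 of 18 had a lower mean, among fatty acid genes 11 of 17, and among LXR and oxysterol genes 9 of 13, beside the 49.7% of all features.

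The groups of the 6 lower genes did not overlap. *ELOVL5*, an elongase of polyunsaturated fatty acids, had a log2 change of −0.62, and *FADS2*, their first desaturase, had −0.55. *ACSL3* and *ACSS2*, which activate long-chain fatty acids and acetate, had −0.48 and −0.50, and *PLTP*, a phospholipid transfer protein and LXR target, had −0.53. *APOC1*, an apolipoprotein and LXR target, had 0.276 and 0.311 in mock and 0.220 and 0.224 after knockdown, a log2 change of −0.40 (SE 0.13). The adjusted p of the 6 lay between 0.149 and 0.255.

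Among the 3 higher genes, *CH25H*, which makes 25-hydroxycholesterol, an oxysterol that blocks SREBP processing and binds LXR, stood far from the rest. It had 0.0819 and 0.0891 in mock, at S/N 2.84 and 4.02, and 0.436 and 0.400 after knockdown, with a log2 change of 2.29 that was 1.37 under normexp. It passed the S/N filter through the knockdown arrays, where it is high, and 1 of the 2 mock arrays was under S/N 3, so no test is given for it and its fold is uncertain. It was the gene of this list past 2-fold. *ACSL1*, another acyl-CoA synthetase, had 1.20 and 1.35 against 1.84 and 1.91, a log2 change of 0.56. *CYP7B1*, which hydroxylates oxysterols, had 0.226 and 0.222 against 0.315 and 0.270, a log2 change of 0.38. The LXR targets *ABCA1* (0.03) and *ABCG1* (−0.29), exporters of cholesterol, overlapped between the groups, and *APOE*, another target, did so too (−0.05). *ABCG1* was dim, with S/N 1.88 on the first knockdown array, and passed the S/N filter through the mock arrays alone. Of the LXR genes in this list, *LPCAT3* (−0.29) and *SMPDL3A* (−0.33) had separated and lower groups with an unadjusted p by limma above 0.05.

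**Figure D4:**
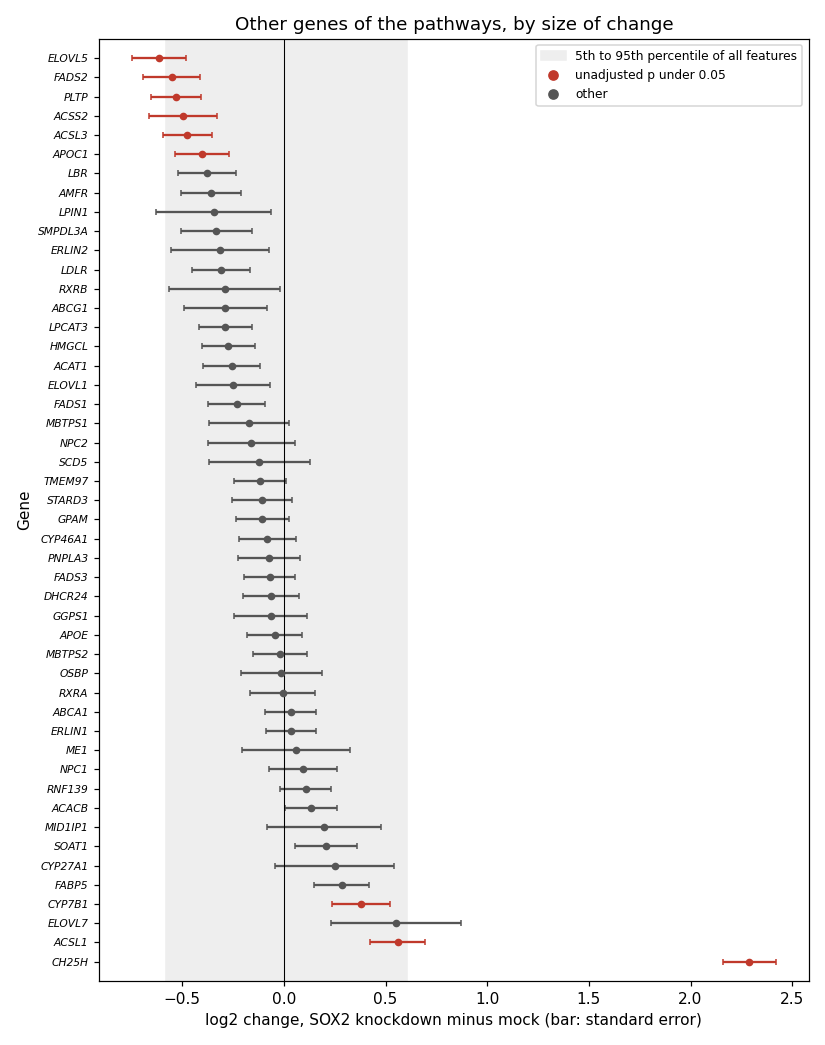
Log2 change of 48 other genes of the pathways, *SOX2* knockdown minus mock, with its standard error by limma (x axis), in order of size. Red points have an unadjusted p under 0.05 and the grey band is the middle 90% of all features. *ELOVL5* at −0.62 and *CH25H* at 2.29 stand at the ends. The red of *CH25H* is no test, since it passed the S/N filter through the knockdown arrays alone.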

How the data were processed

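Total RNA (250 ng) of each sample was biotin-labelled and hybridised to an Applied Biosystems Human Genome Survey array, a 1-colour array read by chemiluminescence. The deposited scanner files hold linear signal intensity columns, normalized by the scanner's software, and per the file headers the S/N is a separate score. A second deposited table is labelled as the authors' ratio of each signal to the probe's median over the arrays. Its median was 0.102 on each array, so for many probes the divisor was larger than the probe's own median. With such divisors and a constant for each array, between 0.997 and 1.008, 100% of it was returned within 5% from the scanner signals. The scanner software and its version are not given in the sources used here.

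Control features and 210 flagged probes (flag of 5000 or more on any array) were left out, and probes of 1 Celera gene ID were averaged. Each array was divided by its 75th percentile and floored at 0.01 before log2. The S/N filter dropped 9361 features. Where a symbol had several IDs the brightest was used. Limma 3.58.1 (R 4.3.3, lmFit and eBayes, two-sided, no block) was fitted over all features kept, with Benjamini-Hochberg adjustment. It was also run on data simulated with known changes and independent noise drawn from the fit's own variances. That run checked the code and not how well the fit suits these arrays. The 2-fold cutoff follows the study's methods and has no test. Intervals are 95%. With 2 arrays per group their number limits the precision.

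The members and gene lists were chosen with earlier results of these data known. Values by array are given for *SOX2*, for members with separated groups and an unadjusted p under 0.05, for the SREBP and LXR regulators and for members whose probes disagree. Other members were given values where they helped to describe the route. Of the list of further pathway genes, up to 6 per direction with an unadjusted p under 0.05 were named by size. The exporters of cholesterol, *APOE*, *LPCAT3* and *SMPDL3A* were added after their values were seen. One gene of that list is not reported here and was left out of its counts. The alternatives were other scalings, background correction, floors, filters, single probes, a variance trend, the replicate number as a block, another fold cutoff and leaving out each array.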

Additional observations from a re-analysis of the deposited data

How the results depend on the processing

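The median log2 change of the members stayed between −0.26 and −0.16, and between 24 and 27 were lower, in the alternatives tried. Over all features the median lay between −0.052 and 0.036 in them, and between 45.7% and 56.4% were lower. Scaling to the array median, no further scaling and the ratio table each gave 1 member with an adjusted p under 0.05 (*NR1H3*). Each gave 1 higher member at an unadjusted p under 0.05, where between 5.38% and 5.49% of all features were higher. Each also gave 4 pathway genes at that p, counting lower and higher ones. Their background is the share of higher features plus that of lower features, which was between 6.12% and 6.25%. *SOX2* was at −1.72 with adjusted p by limma of 3.02e-07, 3.92e-07 and 3.01e-07, beside −1.69 and 0.114 under the main scaling. In these settings the adjusted p of the members followed the size of the log2 change, whatever the spread of a gene's replicates. Members with separated and higher groups numbered 2, not 4, after quantile normalization, without further scaling and under normexp. Of all features 22.2%, 14.7% and 18.3% had such groups. Normexp also gave 1 higher member at an unadjusted p under 0.05, where 5.5% of all features were higher. A floor of 0.05 and a variance trend each gave 11 lower members at that p, where 11% and 9.59% of all features were lower. A 1.5-fold cutoff was passed by 2 members, *SCD* and *NR1H3*. The share of all features past it was not counted. *NR1H3* had passed the S/N filter through the knockdown arrays alone, where it is higher.

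Deviations of same-numbered arrays correlated at −0.50 over the features kept. Each knockdown array thus tended to deviate like the mock array of the other number. The main fit, which has no block, leaves this shared part in its standard errors and p-values. Its source was not tested. With the replicate number as a block, 2 lower members, 1 higher member and 2 pathway genes had an unadjusted p under 0.05 (4.5% of all features were lower and 4.46% higher at it). With the crossed pairing, chosen after seeing the data, 10 lower members did (13.6% of all features).

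With each array left out in turn, lower members at an unadjusted p under 0.05 numbered 2 to 7 (3.96% to 8.26% of all features), higher ones 0 to 1, pathway genes 1 to 9 and members past 2-fold 0 to 1, the 1 being *NR1H3* without mock replicate 2. The pathway genes were counted in both directions. The shares given are of lower features, so they are no background for the pathway genes or the higher members. With a lone array in a group, no conclusion is drawn from these counts. Over all features, between 542 and 742 were past 2-fold. The numbers of separated members were 19 to 24 lower and 4 to 6 higher, where 35.4% to 42.2% and 30.2% to 41% of all features were, and *SOX2* lay between −1.98 and −1.40. In these fits the lone array of a group is assumed to vary like the other group. Members that changed side lay between −0.082 (without mock replicate 1) and 0.15 for *EBP*, −0.20 and 0.10 (without mock replicate 2) for *LSS*, −0.083 and 0.037 (without *SOX2* knockdown replicate 2) for *SC5DL*, which was at 0.0062 without mock replicate 2, and −0.40 and 0.038 (without *SOX2* knockdown replicate 1) for *SCAP*. Under normexp *ACAT2* turned to 0.12, *MVK* to −0.053, *LSS* to 0.025 and *ACLY* to 0.032. The cause was not tested.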
